A study of Mus musculus with 2 samples.

Results

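Mesenchyme rich in Meox1, Tgfbi and Papss2 transcripts was examined in whole mouse hearts at E11.5. Its members were chosen by a rule on their own UMI counts (unique molecular identifiers, 1 per captured transcript), applied to the barcodes that the authors placed in their embedding. A member had at least 1 UMI in 4 or more of 7 mesenchymal genes (Twist1, Sox9, Pdgfra, Prrx1, Vcan, Papss2 and Msx1) and in fewer than 4 of 6 endothelial genes (Pecam1, Cdh5, Tie1, Emcn, Egfl7 and Esam). It had less than 2% of its UMIs in 5 muscle genes (Tnnt2, Myh6, Myh7, Actc1 and Myl7). Its summed UMIs of Meox1, Tgfbi, Inhba and Papss2 were at least as high as those of Hapln1, Col9a3, Car3 and Htra1. The rule found 885 cells among 11640 embedded cells and 27999 barcodes in all. Of these, 616 came from the control and 269 from H2CKO. The other 1917 cells of the same mesenchymal gate, on the other side of the sum, are called Hapln1-rich mesenchyme and served as the nearest comparison.

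Hearts of 2 genotypes were dissociated, and 1 droplet 3′ library was made from each. Control embryos carried Hand2fx/+ and R26R mTmG/wt and no Cre, so 1 of their Hand2 alleles was floxed but not recombined. H2CKO embryos carried Nfatc1Cre/wt, Hand2fx/fx and R26R mTmG/wt. Nfatc1 drives the Cre in the endocardium, and mTmG is a reporter that switches from membrane Tomato to membrane GFP in a cell with Cre and in all its descendants. The number of embryos behind each library is not given in the sources used here. Since each genotype has 1 library, differences between genotypes have no replicate check, and neither p-values nor standard errors appear. Intervals are 95% and cover counting error only.

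The cushions of the embryonic heart are swellings of loose mesenchyme that are remodelled into valves and septa. Part of that mesenchyme descends from endocardial cells that leave the lining of the heart by an epithelial-to-mesenchymal transition, while neural crest cells contribute in the outflow tract and epicardial cells in the atrioventricular region. Cushion cells build a matrix of hyaluronan, sulphated proteoglycans and collagens, and TGF-beta, activin and BMP ligands act on them. HAND2 is a basic helix-loop-helix transcription factor required in several of these lineages.

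The control matrix held 195825720 UMIs and the H2CKO matrix 201477256. Members had a median of 13475 UMIs and 4029.5 genes per cell in the control and of 10058 UMIs and 3200 genes in H2CKO. Mitochondrial transcripts took a median of 2.73% and 3.72%. Embedded control cells had at least 2501 genes and embedded H2CKO cells at least 2002. The matrices shared 57 barcode sequences and the embedded sets 15, none of them members in both libraries. Depth, mitochondrial share and the cell filter therefore differed with genotype, and their part in the differences below was not tested.

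Members made up 32.4% of the mesenchymal gate in the control (616 of 1900 cells; interval 30.3% to 34.6%) and 29.8% in H2CKO (269 of 902; 26.9% to 32.9%). The 2 intervals overlapped, and with a gate of 5 of the 7 genes the difference changed sign, from -2.60 to 4.05 percentage points. As a share of all embedded cells they were 11.4% (10.6% to 12.3%) and 4.32% (3.83% to 4.85%), and this share depends on how much of every other cell type each library held. The gate as a whole held 1900 and 902 cells, so fewer H2CKO cells fell on both of its sides.

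The deposited embedding placed most members near cells of the same gate. It was made from the same cells, and the neighbours are classed by the same genes, so this is a description. Of the 15 nearest cells of a member in the same library, 63.4% on average were members in the control and 64.7% in H2CKO. A further 24.0% and 20.2% were Hapln1-rich. A majority of mesenchymal neighbours was found for 540 of 616 control members (87.7%) and 250 of 269 H2CKO members (92.9%). The remaining 76 and 19 cells lay elsewhere, 22 and 3 of them mainly among epicardial cells and 48 and 15 mainly among cells of no class, most of which sit on the large island at the right of the map.

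**Figure D1:**
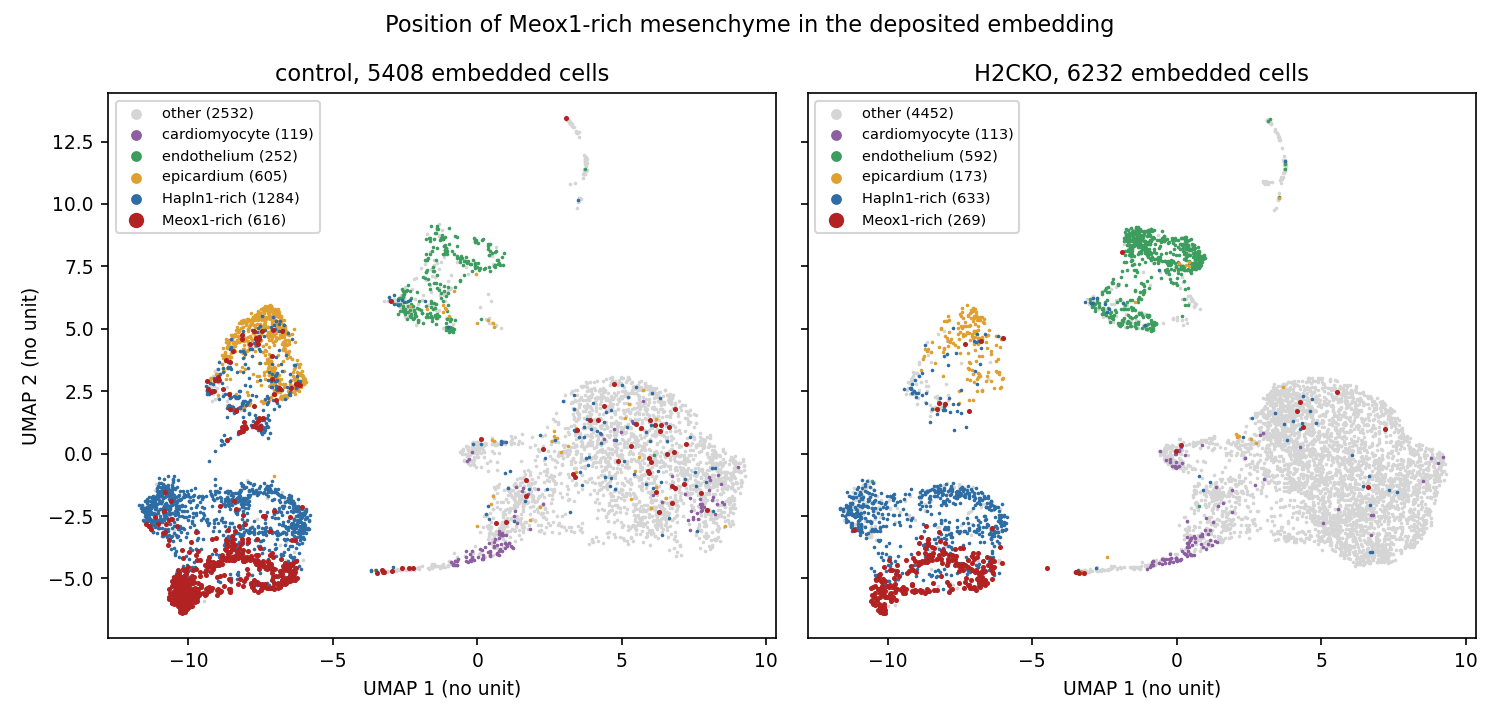
Deposited UMAP positions of the embedded cells of each library (axes without unit), coloured by class, with the number of cells in the legend. The 616 control and 269 H2CKO members (red) form the lower edge of the island they share with Hapln1-rich cells (blue), and a minority lie on the epicardial island and on the large island of unclassed cells.

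The epicardial-like minority was unequal between libraries. At least 3 of 10 epicardial markers had a UMI in 78 control members (12.7%; 10.1% to 15.5%) but in 5 H2CKO members (1.86%; 0.606% to 4.28%). The 78 control cells carried 380.9 CPM (the count scaled to a total of 1000000 UMIs, over the summed UMIs of the cells) of Upk3b, which encodes a uroplakin of mesothelial cells, against 1.01 CPM in the other 538. They carried 127 CPM of Wt1, the epicardial zinc-finger factor, against 4.40 CPM, and 88.1 CPM of Meox1 against 302 CPM. Their median depth was 25159.5 UMIs against 12997, and 23 of the 78 were among the 5% of control cells with the highest doublet scores, against 24 of the 538. In the same libraries the epicardial class itself numbered 605 and 173 cells.

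The 4 genes of the deciding sum and the markers Postn and Prrx1 are given here as a description, because the rule or the choice of the population used them. Meox1, a homeobox factor of somites and of mesenchyme (chromosome 11, 101877510 to 101894354, build GRCm38.p6), stood at 251 CPM in control members and 253 CPM in H2CKO members. It stood at 78.5 and 49.1 CPM in Hapln1-rich cells and at no more than 9.69 CPM in epicardium, endothelium and cardiomyocytes. Tgfbi, a secreted matrix protein induced by TGF-beta (chromosome 13, 56609586 to 56639359), was at 626 and 646 CPM in members and at 216 and 128 CPM in Hapln1-rich cells. Both are rule genes, so their level in members was conditioned on. Without members that had 3 or more epicardial markers, Meox1 was at 302 and 258 CPM and Tgfbi at 744 and 661 CPM.

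Inhba encodes the subunit that forms activin A (chromosome 13, 16004256 to 16031609). It was at 344 CPM in control members and 331 CPM in H2CKO members, against 71.6 and 74.8 CPM in Hapln1-rich cells. Papss2, which makes the sulphate donor for proteoglycan sulphation (chromosome 19, 32595669 to 32667187), was closer, at 206 and 157 CPM against 142 and 72.5 CPM. Postn, the matricellular protein periostin (chromosome 3, 54359267 to 54391041), was at 779 and 639 CPM against 509 and 437 CPM. Prrx1, a homeobox factor of limb and craniofacial mesenchyme, was at 143 and 160.1 CPM against 103 and 88.6 CPM. All 6 were higher in members than in Hapln1-rich cells in both libraries, Postn, Prrx1 and Papss2 by less than the other 3.

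After every cell was thinned to 5000 UMIs, which left out 2 H2CKO members, Tgfbi was detected in 88.6% of control members (85.9% to 91.0%) and 94.8% of H2CKO members (91.4% to 97.1%). The share was 5.95% and 9.86% in endothelium at the same depth. Meox1 was detected in 61.4% and 60.7% of members against 4.37% and 2.04% of endothelial cells. Postn was found in 91.1% and 88.4% of members against 19.0% and 9.01%. In Hapln1-rich cells Tgfbi was detected in 56.5% and 34.2%, Meox1 in 26.6% and 19.9% and Postn in 77.8% and 78.1%. Tgfbi and Meox1 are rule genes, so their high detection in members was built in. Between genotypes the intervals overlapped for Meox1 and Postn and did not for Tgfbi. Detection is given for all members only. By level, Tgfbi was lower in H2CKO without members that had 3 or more epicardial markers, at 744 and 661 CPM.

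**Figure D2:**
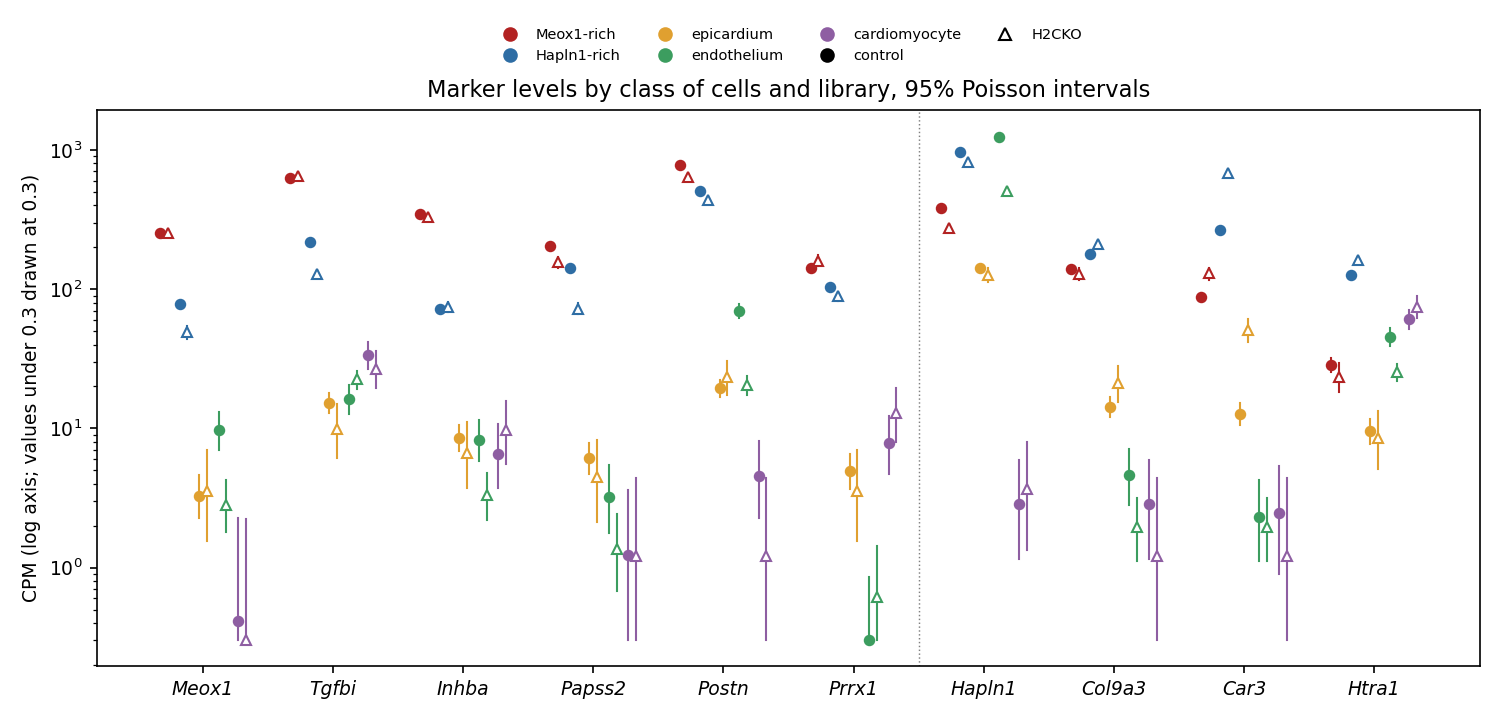
Level of the 6 marker genes and of the 4 genes on the other side of the sum (CPM, log axis) in 5 classes of cells, control as filled circles and H2CKO as open triangles, with 95% Poisson intervals. Of the 6 markers Meox1, Tgfbi and Inhba lie furthest above their level in Hapln1-rich cells, and Postn, Papss2 and Prrx1 are nearer to it.

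The sum was a cut through a range. The median of the Meox1 side was 22 UMIs per control member and 15 per H2CKO member, and of the Hapln1 side 9 and 5 UMIs. The sides were equal in 49 control and 20 H2CKO members, and both were 0 in 14 and 1. Within 2 UMIs of the cut, 107 control members (medians 9 and 9 UMIs) and 49 H2CKO members (9 and 8) faced 99 and 48 Hapln1-rich cells just outside it (5 and 6 UMIs in the control, 4.5 and 6 in H2CKO).

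Beyond the rule's own genes, some contractile, guidance and matrix transcripts were higher in members than in Hapln1-rich cells. A gene was counted as higher when its CPM plus 5 was at least 2-fold that in Hapln1-rich cells in both libraries, among 5809 genes that reached 20 CPM and 20 UMIs in the higher class of each. The count was 43 genes higher (0.74%) and 15 lower (0.258%), rule genes included. These cells were divided on the same counts, so the values are a description. Among genes outside the rule at 50 CPM or more, Stmn4, a stathmin that binds tubulin, had the widest gap, at 112 against 20.3 CPM in the control and 157 against 21.9 CPM in H2CKO. Cd200, a surface glycoprotein that restrains immune cells, was at 64.6 against 16.6 CPM and 64.8 against 11.9 CPM.

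Some contractile genes were higher in members. Tagln, the actin-binding protein transgelin, was at 1694 against 660 CPM in the control and 2065 against 655 CPM in H2CKO, a log2 difference in level of 1.35 and 1.65. Cnn1, the smooth muscle calponin, was at 181 against 77.0 CPM and 149 against 58.1 CPM, and Tpm2, a tropomyosin, was at 239 against 111 CPM and 274 against 94.4 CPM. Of the 14 listed smooth muscle genes, 9 could be compared, 3 were 2-fold higher and none 2-fold lower, where 0.74% and 0.258% of all genes were. The list's median was 0.75 and 0.94, where the median of all genes compared was -0.0032 and 0.031. Acta2, smooth muscle actin, came close to 2-fold at 691 against 392 CPM and 786 against 406 CPM. Across single members the highest of 300 rank correlations among 25 genes, by the smaller value of both libraries, was that of Acta2 and Tagln, with 0.41 over 616 control cells and 0.43 over 267 H2CKO cells at 5000 UMIs. These points share their library, so no test is attached.

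Some guidance and outflow genes were also higher. Robo2, a receptor for Slit proteins, was at 278 against 117 CPM in the control and 188 against 47.1 CPM in H2CKO. Plxna2, a semaphorin co-receptor expressed in cardiac neural crest, was at 49.0 against 15.3 CPM and 30.6 against 12.0 CPM. Crabp1, which binds retinoic acid inside cells and marks migrating neural crest, was at 90.0 against 38.0 CPM and 94.4 against 20.4 CPM. Of 16 guidance genes compared 3 were 2-fold higher (Robo2, Plxna2 and Flrt3) and none lower in both libraries, with a median of 0.076 and 0.12, near that of all genes. Over all 5809 genes compared, 0.74% were higher and 0.258% lower. Of 4 outflow, pharyngeal and neural crest genes that could be compared among 22 listed, 3 were 2-fold higher (Crabp1, Plxna2 and Rgs5). The other 18 were too low, and 5 of the 22 had no UMI in the members of the control and 5 none in those of H2CKO.

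Some matrix genes were higher in members as well. Tnc, the matricellular protein tenascin C, was at 113 against 36.1 CPM in the control and 63.5 against 15.7 CPM in H2CKO. Fbln5, which organises elastic fibres, was at 32.9 against 8.94 CPM and 45.4 against 5.27 CPM, and Col14a1, a fibril-associated collagen, was at 43.8 against 12.2 CPM and 23.0 against 6.90 CPM. Scx, the scleraxis factor of tendon progenitors, was at 64.3 against 24.3 CPM and 57.2 against 23.1 CPM. Of 11 chondrogenic and tendon genes compared Scx was the 1 higher and Matn4, a cartilage matrilin, the 1 lower, at 7.01 against 26.5 CPM and 3.95 against 30.0 CPM, and the median was -0.21 and 0.13. Of 20 matricellular and elastic-fibre genes compared 3 were higher, one of them Tgfbi, and of 15 collagen genes 1 was, where 0.74% of all genes were higher. None of 20 sulphation and proteoglycan genes passed 2-fold in both libraries, near the background of 0.74% and 0.258%. Sfrp2, a secreted Wnt antagonist, was at 44.1 against 12.0 CPM and 64.1 against 8.52 CPM.

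The 5 genes with the lowest ratio to Hapln1-rich cells, among those outside the rule at 50 CPM or more, were Ptprb, Nkd1, Klf2, Mgst1 and Nkain4. Klf2, the shear-responsive factor of endothelium and endocardium, was at 35.4 against 105 CPM in the control and 41.4 against 112 CPM in H2CKO. Ptprb, an endothelial receptor phosphatase, was at 18.2 against 69.9 CPM and 12.5 against 69.4 CPM. Nkd1, an inhibitor and target of Wnt signalling, was at 18.2 against 57.9 CPM and 15.1 against 66.7 CPM. The gate gene Msx1, a homeobox factor downstream of BMP in the cushions, was at 22.5 against 109.8 CPM and 30.3 against 130.2 CPM. Mgst1, a microsomal glutathione transferase, was at 30.3 against 70.6 CPM and 25.3 against 61.0 CPM, and Nkain4, a sodium pump interactor, at 23.1 against 69.1 CPM and 28.0 against 65.2 CPM. None of the 3 endothelial markers compared was 2-fold lower in both libraries, where 0.258% of all genes were.

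GFP was read first as a check of Cre. In the control no embedded cell had more than 5 GFP UMIs, and 19.5% of members had at least 1. A cell with at least 6 was called GFP-high, a threshold chosen after the counts were seen. In H2CKO 5 of 269 members were GFP-high (1.86%; 0.606% to 4.28%), with 16, 23, 30, 40 and 49 UMIs. No other H2CKO member had more than 3, and the share with any GFP UMI was 13.0%, below that of the control without Cre. Members thus split into 5 cells with ample GFP and 264 at the level of the Cre-free library.

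Hapln1-rich cells of the same library were GFP-high in 237 of 633 cases (37.4%; 33.7% to 41.3%). The endothelial class reached 369 of 592 (62.3%; 58.3% to 66.2%), the epicardial class 6 of 173 (3.47%; 1.28% to 7.40%) and the cardiomyocyte class 0 of 113 (upper limit 3.21%). Seen from the other side, of 242 GFP-high cells in the mesenchymal gate 5 were members (2.07%; 0.674% to 4.76%), against 264 of 660 GFP-low cells (40.0%; 36.2% to 43.9%). The intervals of members and Hapln1-rich cells lay far apart, and GFP took no part in the rule. The GFP-high members had 18, 6, 4, 10 and 15 UMIs on the Meox1 side against 8, 6, 3, 10 and 9 on the Hapln1 side, in order of rising GFP.

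**Figure D3:**
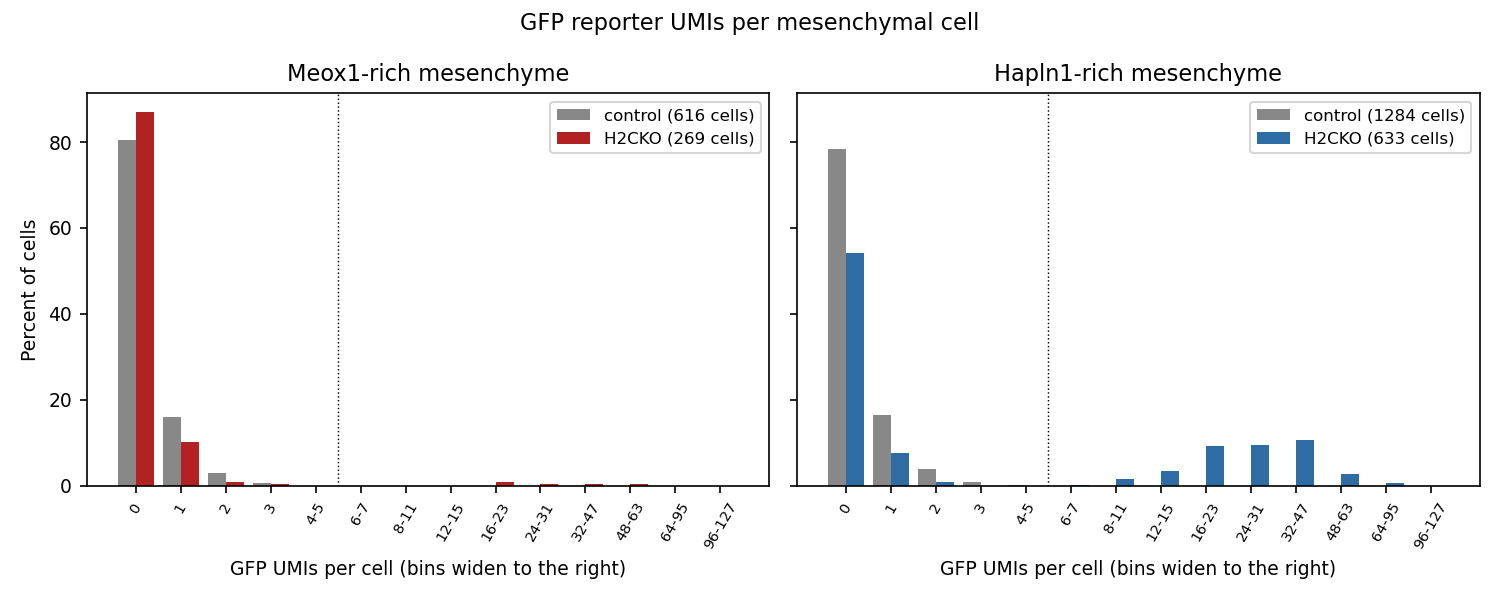
Percent of cells by GFP UMIs per cell in both mesenchymes, control in grey and H2CKO in colour, with the dotted line at the GFP-high threshold of 6 UMIs. H2CKO Hapln1-rich cells form a second mode above the line (237 of 633), which among Meox1-rich cells holds 5 of 269.

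Hand2, the targeted gene (chromosome 8, 57320983 to 57324517), was at 172 CPM in control members (165 to 181) and at 100.3 CPM in H2CKO members (89.4 to 112). The log2 ratio of CPM plus 5 was -0.75, short of 2-fold, and the plain ratio had an interval of 0.514 to 0.657. The counts are 3′ tags, and which part of the gene the floxed allele loses is not given in the sources used here. All 5 GFP-high members had 0 Hand2 UMIs, for which the interval reaches up to 64.6 CPM, and the 264 GFP-low members were at 102 CPM (91.1 to 114). The log2 ratio over the control was -0.73 in these GFP-low members, close to that in all members.

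In Hapln1-rich cells Hand2 fell from 159 to 41.0 CPM, with 54.0 CPM in GFP-low and 20.5 CPM in GFP-high cells. In endothelium it fell from 231 to 17.4 CPM. Epicardium was at 125 and 114 CPM and cardiomyocytes at 101 and 85.4 CPM, with overlapping intervals in each. Thinned to 5000 UMIs, Hand2 was detected in 55.4% of control members and 37.8% of H2CKO members (32.0% to 43.9%), against 7.48% of endothelial cells of the H2CKO library, of which 369 of 592 were GFP-high. Without thinning the shares of members were 85.6% and 57.6%. Erythroid barcodes, taken from all barcodes because none was embedded, held 6.88 and 5.27 CPM of Hand2. Tomato was at 23.4 CPM in control members and 5.26 CPM in H2CKO members, with GFP-low members alone at 5.36 CPM, so the lower Tomato value was present in GFP-low cells.

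Between genotypes, most called genes were lower in H2CKO members. Genes were tested with at least 20 CPM and 20 UMIs in the higher library, and called higher or lower at a log2 ratio of 1 or more in size. Of 6583 genes, 15 were higher in H2CKO members (0.228%) and 127 lower (1.93%). Over all tested genes the median log2 ratio was -0.13 and 59.9% lay below 0. Taken relative to that median, 24 genes were higher and 68 lower. In Hapln1-rich cells 13 of 6582 genes were higher (0.198%) and 155 lower (2.35%).

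Long genes were lower as a whole. The rank correlation of the log2 ratio with gene span over tested genes was -0.52, with a median of 0.13 among the 20% with the shortest span and of -0.49 among the 20% with the longest. Genes are not independent replicates. The genes called lower had a median span of 64806.5 bp, against 24305 bp for all tested. With the trend of the ratio on span taken out, an alternative chosen after seeing the data, 48 genes were lower and 19 higher. Each of the 127 lower genes had a ratio below 0 in Hapln1-rich cells too, and 106 had one in all 4 other classes. The comparisons share the same 2 libraries.

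No gene met the rule set for a difference apart from the neighbouring mesenchyme, which asked for a call in members at least 1 log2 unit beyond the Hapln1-rich ratio in the same direction. The count was 0 of 6583 in each direction (0% and 0%). The 5 GFP-high cells have little weight in these sums, and with GFP-low cells alone the counts were 14 higher and 126 lower.

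**Figure D4:**
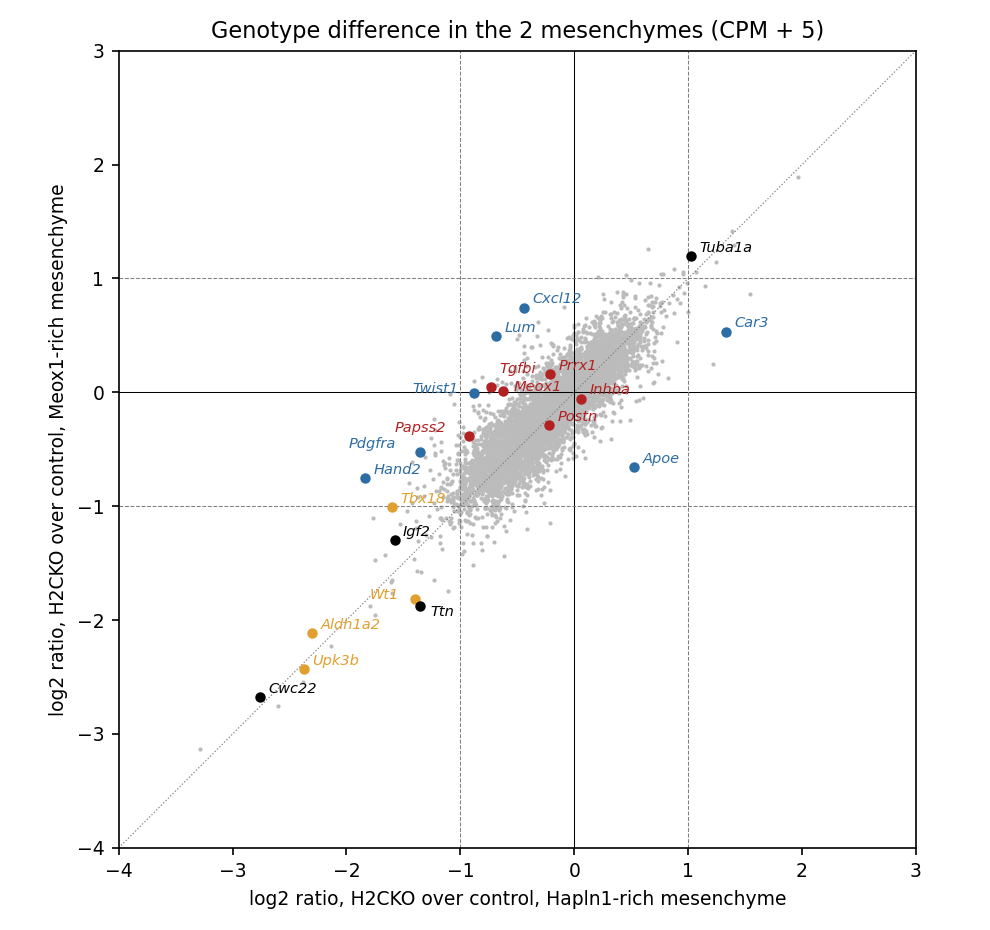
Log2 ratio of H2CKO over control (CPM + 5) per tested gene in Hapln1-rich (horizontal) and Meox1-rich mesenchyme (vertical), dashed lines at 2-fold and a dotted diagonal of equal ratios. Most genes follow the diagonal, Hand2, Twist1 and Pdgfra lie above it with a ratio nearer 0 in Meox1-rich cells, and Apoe and Car3 lie below it.

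Among transcription factors of the gate, Twist1 (mesenchymal migration) was at 609 CPM in control and 607 CPM in H2CKO members, a log2 ratio of -0.0052, where it was -0.88 in Hapln1-rich cells. Sox9, a factor of cushion and cartilage progenitors, had a ratio of -0.35, and Prrx1 of 0.16. Of 34 tested mesenchymal and cardiac factors none passed 2-fold in either direction, with a median of -0.21. Gata6 and Gata4, zinc-finger factors of cardiac tissue, were at 452 and 404 CPM and at 182 and 137 CPM. Twist1, Sox9 and Prrx1 are gate genes, and with 0.228% and 1.93% of all genes called, a count of 0 among 34 is near the background.

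Of 15 TGF-beta and activin genes none was called and the median was -0.13, the same as for all genes tested. Inhba, whose level the rule conditioned on, had a ratio of -0.054. Tgfb2, a ligand of cushion transition, was at 299.6 and 274 CPM. Of 13 BMP genes none was called, with Bmp4 at 94.5 and 153 CPM and its inhibitor Smad6 at 114 and 107 CPM. Pdgfra, a growth factor receptor of mesenchyme, was at 193 and 133 CPM (log2 -0.53), against a log2 ratio of -1.36 in Hapln1-rich cells. For each of these lists a count of 0 is near the background of 0.228% and 1.93%, and the same holds for the Wnt list, with none of 12 called and Sfrp1, a secreted antagonist, lowest at 294 and 149.95 CPM.

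Collagen genes had mostly lower values in H2CKO members without passing 2-fold. Of 17 tested collagen and collagen-processing genes 15 had a ratio below 0 and none was called, and the median was -0.67 against -0.13 for all genes. Among the 20% of genes with the longest span the median was -0.49, and the part of gene span in the list median was not tested. In Hapln1-rich cells the same list had a median of -0.64 with 5 genes called lower. Col1a1 was at 435 CPM in the control and 249 CPM in H2CKO, and Col3a1 at 697 and 449 CPM. Vcan, the large proteoglycan of cushion matrix, was at 2402 and 1260 CPM (log2 -0.93). Pcolce, an enhancer of procollagen cleavage, went the other way at 93.1 and 149 CPM. The matricellular and elastic-fibre list had a median of -0.14, near that of all genes. Of its 20 tested genes Thbs1, the matricellular protein thrombospondin, was the one called and fell from 275 to 134 CPM (plain ratio 0.438 to 0.540). Of 20 sulphation and proteoglycan genes 14 had a ratio below 0 and 1 passed 2-fold, where 1.93% of all genes were lower. The gene past 2-fold was the heparan sulphate endosulphatase Sulf1, which fell from 23.7 to 4.60 CPM. Sulf1 stood at a log2 ratio of -0.35 without members that had 3 or more epicardial markers.

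Of 10 smooth muscle genes tested none was called between genotypes, near the background of 0.228% and 1.93%. Their ratios ran from -0.51 to 0.68 with a median of -0.10, and Tagln had a log2 ratio of 0.28, Acta2 of 0.18 and Cnn1 of -0.28. Of the 10 ratios 6 were below 0.

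Igf2, the imprinted fetal growth ligand, fell from 1539 CPM in control members to 622 CPM in H2CKO members (plain ratio 0.385 to 0.424). Igf2 also fell in Hapln1-rich cells, with a log2 ratio of -1.58, and had a ratio of -1.25 in erythroid barcodes. Igfbp5, an IGF-binding protein, fell from 204 to 98.7 CPM. Of 17 IGF and imprinted genes these 2 were called, and the median was -0.50 against -0.13 for all genes. Over all tested genes 1.93% were lower and 0.228% higher, the background for each list named here. Vegfa, the vascular growth factor, fell from 37.6 to 12.2 CPM (log2 -0.94 without the members with 3 or more epicardial markers), and Pdk1, a hypoxia-induced kinase of glucose metabolism, from 35.8 to 13.5 CPM, the called genes among 17 of glycolysis and hypoxia. Fosb, an immediate-early factor, fell from 100.5 to 39.1 CPM and was the 1 gene called of 17 in its list, of which 10 had a ratio below 0.

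The epicardial list had the lowest median of all lists, -1.82. It had a median of -1.60 with 4 genes called lower in Hapln1-rich cells, of which 228 of 1284 control and 33 of 633 H2CKO cells carried 3 or more of its markers. Upk3b fell from 90.9 to 12.8 CPM, Aldh1a2, which makes retinoic acid, from 26.6 to 2.30 CPM, Wt1 from 33.4 to 5.92 CPM and Tbx18, an epicardial T-box factor, from 62.4 to 28.6 CPM. These were 4 of 5 tested epicardial markers, where 1.93% of all genes were lower. The 10 markers together summed to 299 CPM in control and 88.1 CPM in H2CKO members. They move with the 78 and 5 members that carried 3 or more of them. Without those cells none of the list was called, Upk3b had a log2 ratio of 0.083, Wt1 of -0.35 and Tbx18 of -0.017, and 104 genes were lower in all. That alternative removes cells on the genes in question. With cells kept by mesenchymal neighbours in place of markers, 2 epicardial markers were called lower, Upk3b at -2.32 and Wt1 at -1.54, while Aldh1a2 at -1.51 was not among the genes called, and 110 genes were lower in all.

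Several other called genes had smaller ratios without the same cells, while Igf2 (-1.35), Fosb (-1.40), Thbs1 (-1.15) and Cwc22 (-2.73) did not. Ezr, a linker of membrane and actin in epithelia, fell from 88.1 to 19.1 CPM and had a log2 ratio of -0.57 without the epicardial-marker cells. Stk26, a kinase of cell polarity, fell from 52.1 to 10.5 CPM, with -0.79 without them. Gucy1a1, a subunit of the nitric oxide receptor, fell from 58.5 to 18.1 CPM (-0.25 without them), and Sema3d, a secreted guidance ligand, from 24.4 to 4.27 CPM (-0.025). Arhgap29 kept its call there, at -1.03 against -1.65 in all members. Smim1, a small membrane protein, fell from 50.1 to 15.5 CPM (-0.23), and Flrt2, a guidance and adhesion protein, from 48.0 to 19.7 CPM (-0.64).

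Of 12 cardiomyocyte markers 9 had a ratio below 0. Ttn, the giant sarcomere protein titin, fell from 1099 to 296 CPM, Myh6, the atrial myosin heavy chain, from 167 to 46.4 CPM, Slc8a1, the sodium-calcium exchanger, from 136 to 47.7 CPM, and Ryr2, the calcium release channel, from 39.7 to 16.8 CPM. Ttn and Ryr2 were the 2 markers called, where 1.93% of all genes were lower, and the list median was -0.27. In Hapln1-rich cells the list had a median of 0.015 with 1 gene called lower, and Ttn had a ratio of -1.36. The other 3 had higher values in H2CKO: Nppa, an atrial natriuretic peptide, at 89.8 and 107 CPM, Myl2, the ventricular myosin light chain, at 916 and 1133 CPM and Tnni3, cardiac troponin I, at 122 and 165 CPM. Myh6 is a gene of the muscle gate, and Slc8a1 was named by its ratio. Ttn, Slc8a1 and Ryr2 are long genes, with spans of 278568, 365273 and 553844 bp, where the median of tested genes was 24305 bp. Myh6, with a span of 25007 bp, was near that median. The part of gene span in these falls was not tested, and long genes were lower as a whole. With cells kept by mesenchymal neighbours the ratios were -0.98 for Ttn, -0.997 for Myh6, -0.56 for Slc8a1 and -0.043 for Ryr2. Without the epicardial-marker members Ttn was at -1.38 against -1.87 in all members, and Myh6 at -1.09 against -1.74, both still past 2-fold. Slc8a1 was at -0.94 against -1.42 and Ryr2 at -0.58 against -1.04. Cwc22, a splicing factor, fell from 151 to 19.4 CPM, and its ratio lay between -2.08 and -2.76 in the 5 other classes, erythroid barcodes included. The fall of Cwc22 was therefore present in every class measured.

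The 15 genes called higher (0.228% of those tested) included 6 tubulin genes, named by the size of their ratio and not from a list. Tuba1a rose from 1114 to 2557 CPM (plain ratio 2.23 to 2.36), Tuba1b from 445 to 930 CPM, Tuba1c from 62.5 to 135 CPM, Tubb2a from 68.5 to 146 CPM, Tubb2b from 177 to 381 CPM and Tubb3 from 86.3 to 183 CPM. Of these 6, Tuba1a and Tuba1c also passed 2-fold in Hapln1-rich cells, and the other 4 had log2 ratios of 0.76 to 0.96 there. In erythroid barcodes 5 of the 6 had ratios of 0.51 to 0.98, and Tuba1a had 1.25 in epicardium, so higher values were not limited to mesenchyme. Tubb3 differed, at -0.00018 in erythroid barcodes, 0.20 in cardiomyocytes and -0.88 in endothelium, though it had 1.09 in epicardium. Without members that had 3 or more epicardial markers the log2 ratio was 0.82 for Tubb3, 0.95 for Tubb2a and 0.90 for Tuba1c, short of 2-fold. Tubulin genes are close copies of one another, and reads could be divided between them unequally. Ucp2, a mitochondrial carrier, rose from 38.7 to 99.3 CPM and Nmt1, an N-myristoyltransferase, from 54.8 to 118 CPM. The haemoglobin gene Hbb-bs rose from 40.7 to 117 CPM. Its log2 ratio was 1.29 to 1.38 in the other embedded classes and 1.09 within erythroid barcodes. Hbb-bt, the 1 of 7 tested erythroid markers with a ratio below 0, was at 158 and 131 CPM. The 10 erythroid markers summed to 4255 and 6503 CPM, in libraries with 2939 and 5653 erythroid barcodes.

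**Figure D5:**
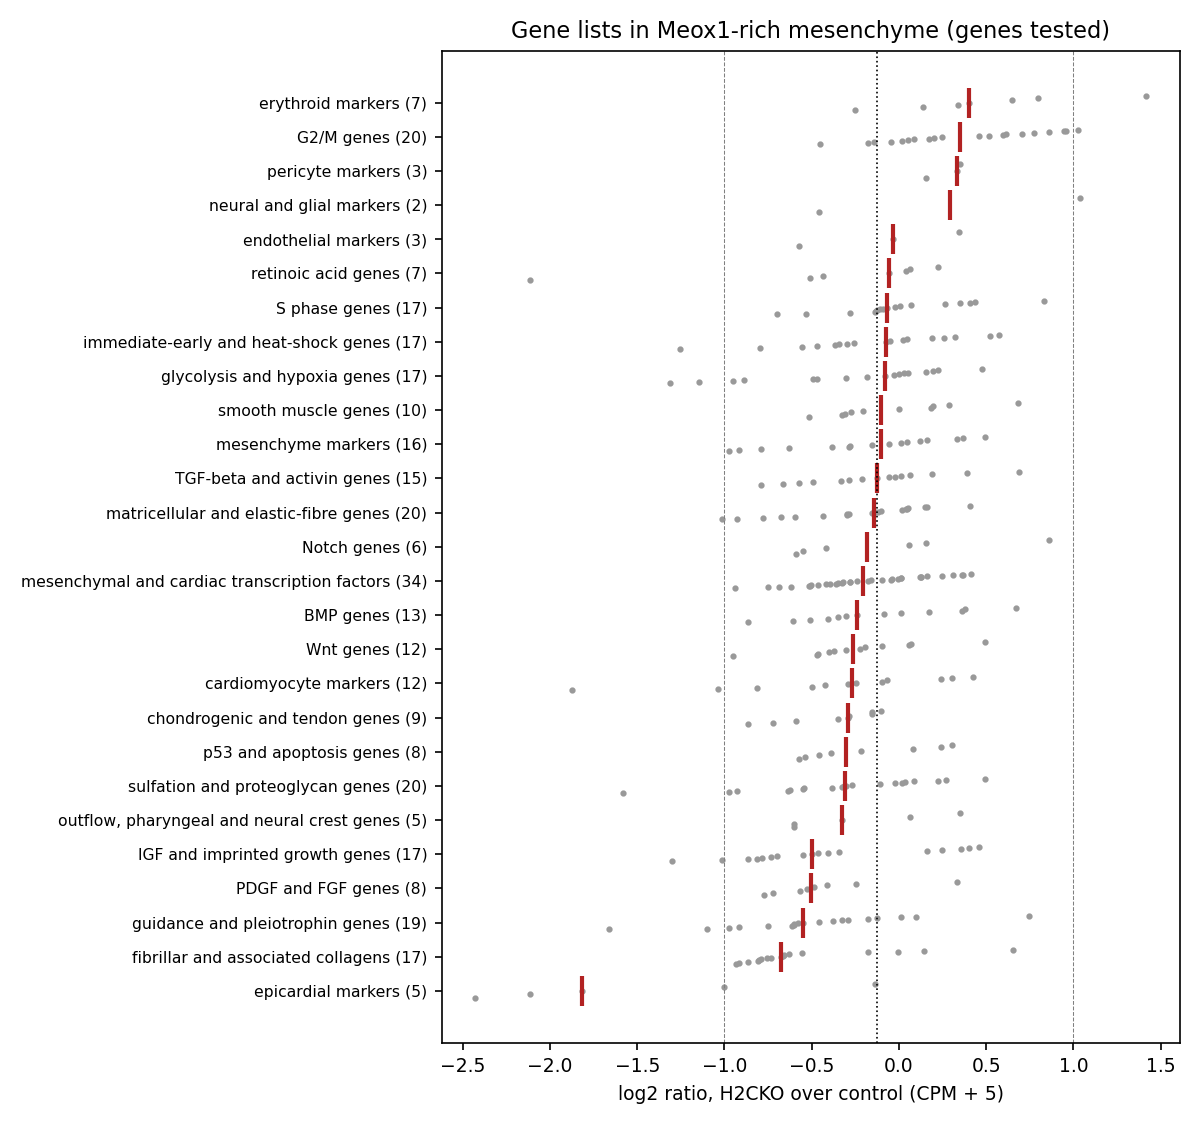
Log2 ratio of H2CKO over control (CPM + 5) in Meox1-rich mesenchyme for every tested gene (grey points) of each list, with the list median as a red bar and the number tested in parentheses. Dashed lines mark 2-fold and the dotted line the median of all genes, -0.13; epicardial markers have the lowest median, followed by collagens, and most lists lie near the dotted line.

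Genes of mitosis leaned higher in H2CKO members. Of 20 listed G2/M genes 16 had a ratio of 0 or above, with a median of 0.35 against -0.13 for all genes and 0.011 for the same list in Hapln1-rich cells. Aurka, a spindle kinase, was the 1 called gene of the 20, where 0.228% of all genes were higher, and rose from 33.4 to 73.3 CPM. Cdk1, the mitotic kinase, was at 158 and 310.1 CPM, and Mki67, the proliferation antigen, at 166 and 120.0 CPM. At 5000 UMIs per cell, 60.4% of control members (56.4% to 64.3%; 372 of 616) and 70.8% of H2CKO members (64.9% to 76.2%; 189 of 267) had a UMI in 3 or more of the list. These intervals did not overlap. Unthinned shares were 76.1% and 80.7%. Hapln1-rich cells were at 64.2% and 70.9%, or 79.5% and 80.4% unthinned. The difference was not tested between the mesenchymes. The corresponding shares for S phase genes in members were 75.2% (71.6% to 78.5%) and 80.5% (75.3% to 85.1%), with overlapping intervals. These shares rest on phase genes alone and measure no division.

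Markers of other cells were present in members to different extents. The cardiomyocyte markers summed to 5606 and 4449 CPM and the erythroid markers to 4255 and 6503 CPM, sums of the same order as the 4259 and 3595 CPM of the 16 mesenchyme markers. Their part in the differences above was not tested. The 10 white blood cell markers summed to 11.9 and 13.2 CPM, with 1 and 7 of them at 0, and none reached the threshold for testing. Endothelial markers summed to 236 and 238 CPM. Neural and glial markers summed to 190.1 and 253 CPM, with Tubb3 as the called gene of 2 tested, where 0.228% of all genes were higher. Pericyte markers summed to 118 and 127 CPM. The gate required mesenchymal genes, so their presence is no check of the name.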

How the data were processed

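For each library the authors deposited raw UMI counts by gene and barcode. The embedding position of a subset of barcodes is a score without unit, per the file headers. Cell Ranger 5.0.1, Seurat 4 and build GRCm38.p6 are named in the submitters' processing notes without a role; the cell filter of the embedding is not given in the sources used here. Ensembl IDs gave a symbol for 22285 of the 22401 features.

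Members, 28 gene lists and all thresholds were chosen with earlier results of these data known. The classes for comparison were cut by markers: epicardium (4 or more of 10 markers), endothelium (4 or more of 6), cardiomyocytes (5% or more of UMIs in the 5 muscle genes) and erythroid barcodes (20% or more haemoglobin UMIs), each outside the gates of the others. UMI counts were summed per class and library, divided by the sum (CPM), and compared as log2 of CPM plus 5. Intervals are 95% exact Poisson, exact binomial (Clopper-Pearson) and exact conditional for ratios (scipy 1.17.1). Thinning drew 5000 UMIs per cell without replacement. Doublets were left in the main counts; Scrublet (scanpy 1.11.5, expected rate 6%) marked 11.83% of control and 2.214% of H2CKO cells and its highest 5% of scores were left out as an alternative. The calculations were tested on simulated data.

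Named genes are the rule and marker genes, Hand2 and both reporters, the 10 highest and 10 lowest called genes at 50 CPM or more with an ordinary symbol (mitochondrial, haemoglobin, ribosomal-protein and Y-linked genes left out), called list genes with the best-expressed others of a list, and the 10 highest and 5 lowest levels against Hapln1-rich cells. Acta2, Bmp4, Cdk1, Gata4, Gata6, Mki67, Pcolce, Sfrp1, Smad6 and Tgfb2 were named after their values were seen. Alternatives changed the cell set, the gate, the pseudocount, the minimum level, the centring and the weight per cell.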

Additional observations from a re-analysis of the deposited data

Results flagged for a closer look

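Prrx1 went in opposite directions in the 2 mesenchymes. Its log2 ratio of H2CKO over control was 0.16 in Meox1-rich cells and -0.21 in Hapln1-rich cells, both short of 2-fold. The difference between them was not tested, since each genotype has 1 library, and Prrx1 is a gate gene. In GFP-low H2CKO cells alone the ratio was 0.17 in Meox1-rich and 0.047 in Hapln1-rich cells, so the signs did not differ. Without members with 3 or more epicardial markers its ratio in Meox1-rich cells was -0.020.

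Barcodes outside the deposited embedding also met the gene rule, 92 in the control and 44 in H2CKO. The control ones had a median of 5634 UMIs and 2265.5 genes, and 57 of them had fewer genes than any embedded control cell. The H2CKO ones had a median of 20214 UMIs and 3354.5 genes, and 14 lay below the lowest embedded cell. More than 10% of UMIs were mitochondrial in 20 and 6 of them.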

How the results depend on the processing

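No paired analysis was possible because each genotype has 1 library. Of the group results under alternatives, 144 stayed within their counting interval or within 1.5 times the count, and 46 moved. The 1 called value that reversed was GFP in GFP-low members, which were selected on GFP. The causes of the moves were not tested. Among those that moved, the share of the mesenchymal gate changed sign, from -2.60 to 4.05 percentage points (H2CKO minus control) with 5 of 7 gate genes. The share of embedded cells went from -7.07 points to -4.44 with all barcodes of at least 500 genes, -5.94 with fewer than 2 endothelial genes, -3.64 with a sum 2 times the other, -5.71 without members with 3 or more epicardial markers and -5.97 with mostly mesenchymal neighbours.

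Genes lower numbered 233 with cells thinned before the rule (73 of the 127 shared), 251 with a pseudocount of 1 CPM, 25 at a minimum of 100 CPM, 68 when centred, 366 in H2CKO members with a GFP UMI (35 cells) and 48 without the span trend (42 shared). Genes higher numbered 24 thinned, 24 centred and 39 in members with a GFP UMI. Genes apart from Hapln1-rich cells on the lower side numbered 1 with 5 gate genes, 1 with the stricter sum, 6 thinned, 2 at the pseudocount of 1 and 58 in members with a GFP UMI; on the higher side they numbered 1, 1 and 1 under the first 3 of these, 1 without epicardial-marker members and 9 in members with a GFP UMI.

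The Hand2 ratio was -1.02 thinned. The GFP ratio, 1.84 in all members, was 0.41 with the stricter sum and 2.25 thinned. It was 4.52 in members with a GFP UMI and reversed to -0.21 in GFP-low members, both by construction, since these cells were selected on GFP. The Tomato ratio was -2.51 in members with a GFP UMI. List genes lower, 15 of 310, were 9 without epicardial-marker members, 5 at 100 CPM, 23 in members with a GFP UMI and 9 with mesenchymal neighbours; list genes higher, 3, were 1 without the top doublet scores, 1 thinned, 5 centred and 12 in members with a GFP UMI. Epicardial markers lower, 4, were 2 with 5 gate genes, 2 with the stricter sum, 2 thinned, 0 without epicardial-marker members, 0 at 100 CPM, 7 with no minimum, 2 with equal weight per cell and 2 with mesenchymal neighbours. Upk3b reversed to 0.083 without epicardial-marker members. The difference in G2/M-positive cells, 10.4 points, kept its size within counting error under every alternative run for it.

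The GFP-low, span and neighbour alternatives were chosen after seeing the data. Of the list medians under alternatives, 33 moved and 450 did not. Genes under 20 UMIs in members could not be tested, and the 3041010 UMIs of H2CKO members set the precision more than the 10412000 of control members.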

Other observations

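A few genes differed in their genotype ratio between the 2 mesenchymes by 1 log2 unit or more. They were found after their values were seen, and none has a replicate check. Of 6841 genes tested in either mesenchyme, 5 lay higher in Meox1-rich cells (Cxcl12, Lum, Hand2, Kctd12 and Gm14226, the last with 0 UMIs in H2CKO in both mesenchymes, so that its value reflects the control levels alone) and 4 lower (GFP, Vstm4, Apoe and Tspan8). Cxcl12, a chemokine that guides migrating cells, was at 39.4 CPM in control and 69.4 CPM in H2CKO members, and at 21.0 and 14.2 CPM in Hapln1-rich cells. Lum, the collagen-binding proteoglycan lumican, was at 50.2 and 72.7 CPM in members and at 78.4 and 46.9 CPM in Hapln1-rich cells. Apoe, a lipid-carrying apolipoprotein, was at 277 and 174 CPM in members and at 412 and 597 CPM in Hapln1-rich cells. Each of these 3 therefore had ratios of opposite sign on the 2 sides of the gate, short of 2-fold on each. With GFP-low H2CKO cells alone, 4 of 6825 genes lay higher and 2 lower, and Cxcl12 and Apoe were among them while Lum and Hand2 were not.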
